A study of Mus musculus with 8 samples.

Results

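DNA replication genes were followed in BV-2, a retrovirus-immortalised line of mouse microglia that stands in for the resident macrophages of brain tissue. The genes were taken from a list of 48 symbols covering the replicative helicase, origin licensing, the sliding clamp and its loader, the polymerases, lagging strand synthesis, nucleotide supply, S phase entry and chromatin assembly. A gene was matched through the transcript name of its array probes, and the brightest probe on average stood for it. That choice of probe uses no difference between groups. The genes, and the other gene lists used below, were chosen with earlier results of these data known. Their counts and medians beside those of all genes are therefore a description and no test. Of the 48 genes, 47 were tested, among 22460 genes in all. Ccne2, which encodes a cyclin of S phase entry, was not well above background on any of the 8 arrays and was not tested. Of the 47 genes tested, 46 were above background on all 8 arrays, and Gins2 was on 7.

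The series asks how HF, the hexane fraction of Amauroderma rugosum, a mushroom, modulates cells stimulated with lipopolysaccharide (LPS), a bacterial outer membrane lipid that acts through Toll-like receptor 4. There were 4 groups: untreated BV-2 cells (control), cells given LPS at 1 µg/mL (LPS), cells given HF at 100 µg/mL (HF), and cells given both at the same concentrations (LPS+HF), all for 24 h. The label of the control group gives its treatment as none and names no solvent control. Total RNA of each sample was labelled with the dye Cy3 and hybridised to a single-colour Agilent array, with 2 arrays per group. The study calls the 2 samples of a group biological replicates, but whether they came from separate cultures or passages is not stated, so p-values measure the spread between these samples, and the number of arrays limits the precision.

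Replication starts when the origin recognition complex, with Cdc6 and Cdt1, loads the MCM helicase onto DNA, which geminin (Gmnn) blocks outside G1. Cdc45 and the GINS complex then turn MCM into the active helicase, primase and the polymerases copy the strands, and the clamp Pcna, placed by replication factor C, holds the polymerases on DNA. Most of these genes are transcribed around the entry into S phase, under factors of the E2F family such as E2f1. In RNA from a whole culture, more cells in S phase cannot be told apart from more of these transcripts per cell.

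The start regions of 4 of the genes are shown because the results turn on them: Rrm2 and Cdc6 passed a test, Pole2 had the highest difference between LPS+HF and LPS, and Ccne1 was among the few genes with lower values in LPS+HF than in LPS. Each is a RefSeq window of GRCm38.p6 from 250 bases before to 50 bases after the gene's start, written on the gene's strand. Rrm2 is at chr12:24708004-24708303 (plus strand), Cdc6 at chr11:98907901-98908200 (plus strand), Pole2 at chr12:69228141-69228440 (minus strand) and Ccne1 at chr7:38107441-38107740 (minus strand). Capitals mark a match to the E2F motif, searched on both strands as TTTCCCGC, TTTCGCGC, TTTGCCGC or TTTGGCGC.
Rrm2: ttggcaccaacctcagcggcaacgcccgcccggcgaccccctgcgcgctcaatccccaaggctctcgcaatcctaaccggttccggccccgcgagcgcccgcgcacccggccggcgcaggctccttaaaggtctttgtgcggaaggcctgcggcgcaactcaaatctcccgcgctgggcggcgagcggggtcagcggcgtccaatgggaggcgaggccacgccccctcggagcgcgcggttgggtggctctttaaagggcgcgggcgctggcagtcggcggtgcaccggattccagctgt
Cdc6: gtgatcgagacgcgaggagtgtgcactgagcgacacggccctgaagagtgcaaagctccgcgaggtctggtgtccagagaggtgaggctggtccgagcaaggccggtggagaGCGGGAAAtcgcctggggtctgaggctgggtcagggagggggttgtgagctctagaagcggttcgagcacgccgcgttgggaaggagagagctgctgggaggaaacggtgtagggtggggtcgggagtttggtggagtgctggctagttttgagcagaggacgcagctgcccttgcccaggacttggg
Pole2: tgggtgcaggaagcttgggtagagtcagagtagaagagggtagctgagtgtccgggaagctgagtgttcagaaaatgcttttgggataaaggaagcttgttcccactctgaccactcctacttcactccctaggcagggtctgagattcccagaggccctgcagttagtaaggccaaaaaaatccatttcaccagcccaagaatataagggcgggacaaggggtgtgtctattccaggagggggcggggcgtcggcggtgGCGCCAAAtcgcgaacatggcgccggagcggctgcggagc
Ccne1: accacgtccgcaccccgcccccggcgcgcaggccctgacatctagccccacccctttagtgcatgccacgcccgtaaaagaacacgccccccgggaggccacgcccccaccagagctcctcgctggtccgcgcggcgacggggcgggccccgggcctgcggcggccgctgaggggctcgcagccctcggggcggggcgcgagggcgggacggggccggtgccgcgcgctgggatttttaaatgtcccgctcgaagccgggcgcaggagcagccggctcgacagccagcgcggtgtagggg

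The Cdc6 window held 1 match, beginning at position -138 from the gene's start, and the Pole2 window 1 match, beginning at position 11, where position 1 is the first transcribed base. The Rrm2 and Ccne1 windows held none of these letters. Over the 39 genes with a RefSeq window, 15 had a match, and 15 of their 45 windows (33.3%) did, against 2.26% of the 32851 mouse windows of the same length. The 15 genes were Cdc6, Cdt1, Gins3, Lig1, Mcm3, Mcm5, Mcm6, Mcm7, Orc1, Pola1, Pold1, Pold3, Pole2, Rfc3 and Uhrf1. The letters CCAAT, searched on both strands, stood in 55.6% of the 45 windows and in 37.4% of all windows. TTTGAA, the letters of the CHR element of late cell cycle genes, stood in 11.1% and 17.9%. Gins1, Gins2, Gins4, Gmnn, Mcm4, Pole, Prim2, Rfc2 and Ccne2 had no window. The median log2 difference between LPS+HF and LPS was 0.42 over the 15 genes with an E2F match and 0.38 over the 24 without.

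Markers of microglia and macrophages were measured: 11 of 13 were above background on all 8 arrays, and P2ry12 and Cx3cr1 on 5 and 6. Of 19 markers of other cell types, 8 were also above background on all 8 arrays, including Snap25 and Cd3e, so a signal above background did not by itself set the cell type. Before scaling, the 4 arrays without HF had a 75th percentile signal of 247 to 286, and the 4 with HF of 346 to 527. All arrays with HF lay in slide row 2 and all with LPS in slide columns 3 and 4, so slide row and HF, and slide column and LPS, cannot be told apart. Control replicate 1 had a coefficient of variation of 48.9% over repeated probes, against 3.77% to 8.06% on the other arrays. That array and HF replicate 1 were marked for evaluation in the scanner's quality report. The replication genes showed this too. On control replicate 1, 8 of them read more than 1 log2 unit lower than on control replicate 2 (Mcm4, Mcm6, Mcm7, Gins2, Rfc5, Prim1, Rrm1 and E2f1), and Chaf1a read 1.63 higher. Such gaps were seen for Gins2 alone on the HF arrays and for none of the 47 genes on the LPS or LPS+HF arrays. Comparisons with control are therefore also given against control replicate 2 alone. In the comparison of LPS+HF with LPS the control arrays enter only through the pooled spread.

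Signals below are log2 processed signals minus the 75th percentile of the same array, so a value of 1 is a doubling over that percentile. A value is set only against the same probe on other arrays. A gene passed with an adjusted p under 0.05 in limma, Benjamini-Hochberg over all 22460 genes, two-sided, from a fit of all 8 arrays.

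**Figure D1:**
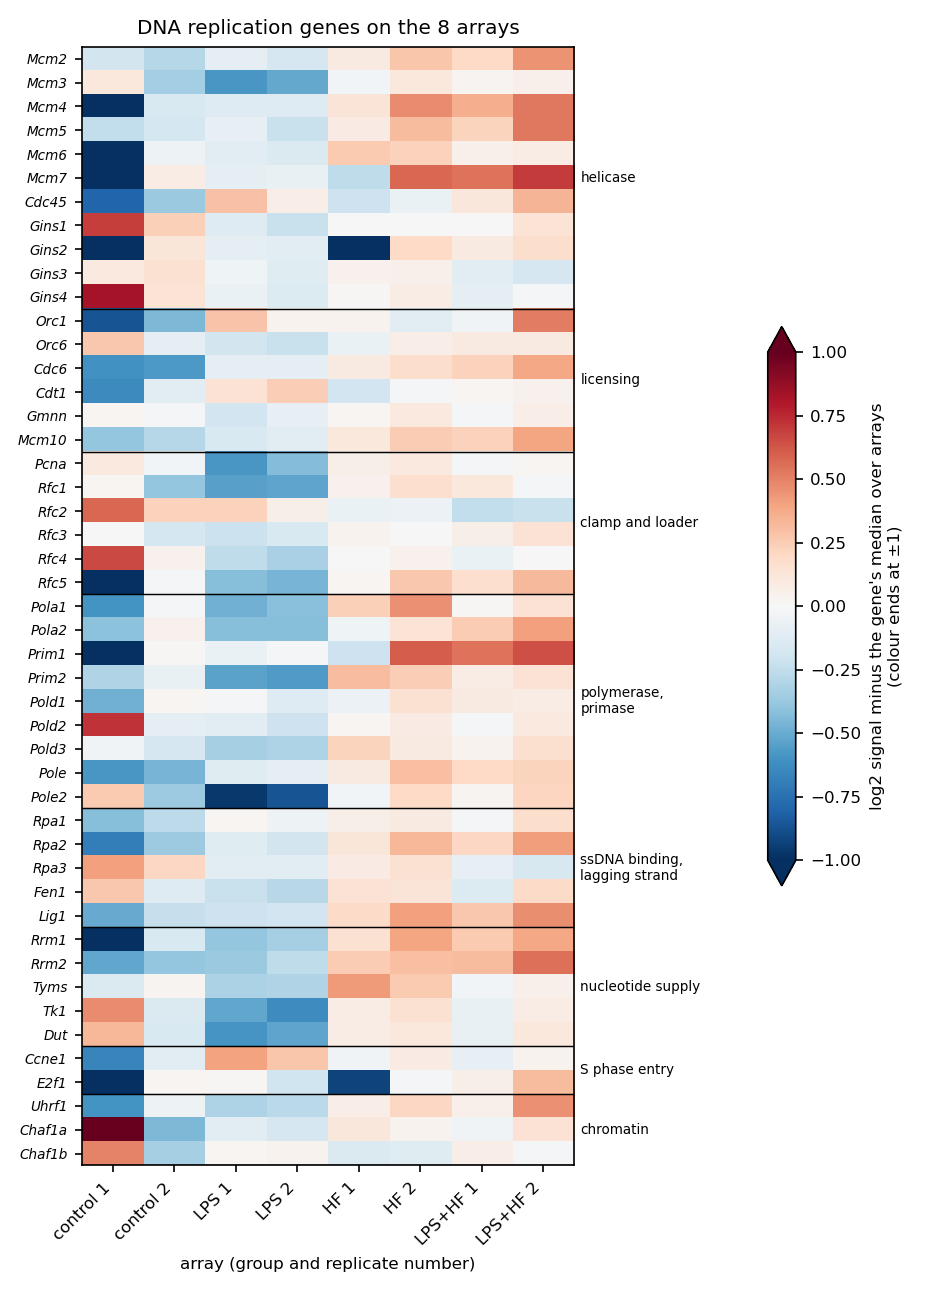
Signal of the 47 replication genes tested on each of the 8 arrays, as log2 signal minus the gene's median over the arrays (colour, ending at ±1), with genes in order of role. The control and LPS columns are mostly below and the HF and LPS+HF columns mostly above the gene's median. Control replicate 1 holds the widest departures in both directions.

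Whether HF shifts these genes in LPS-stimulated cells was asked by setting LPS+HF against LPS. Most replication genes had higher signals with HF: 42 of the 47 had a log2 difference above 0, which 43.8% of all genes did. In 37 of the 47 both LPS+HF arrays were above both LPS arrays (32.7% of all genes), and in 3, Rfc2, Ccne1 and Cdt1, both were below (41.2% of all genes). The median log2 difference was 0.32 over the 47 genes and -0.07 over all genes. The differences were small, from -0.38 to 1.03, and 1 gene passed: Rrm2 rose. Of all genes, 6.25% passed in this comparison, 2.99% as rises, so the share of replication genes that passed was not above the background.

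The count of calls depended on the control arrays through that spread. Without control replicate 1 the same differences gave 18 rises and 1 fall (Rfc2), where 29.2% of all genes passed, 3364 as rises and 3203 as falls. Leaving out control replicate 2 instead also raised the count, which cannot be set against the background because the share of all genes is not given. The 18 that rose without control replicate 1 were Mcm3, Mcm4, Cdc6, Mcm10, Pcna, Rfc1, Rfc5, Pola1, Pola2, Prim2, Pold3, Pole2, Rpa2, Lig1, Rrm1, Rrm2, Tk1 and Dut. Leaving out any single LPS, HF or LPS+HF array left 0 replication genes past the threshold in limma, with 4 to 14 at an unadjusted p under 0.05.

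**Figure D2:**
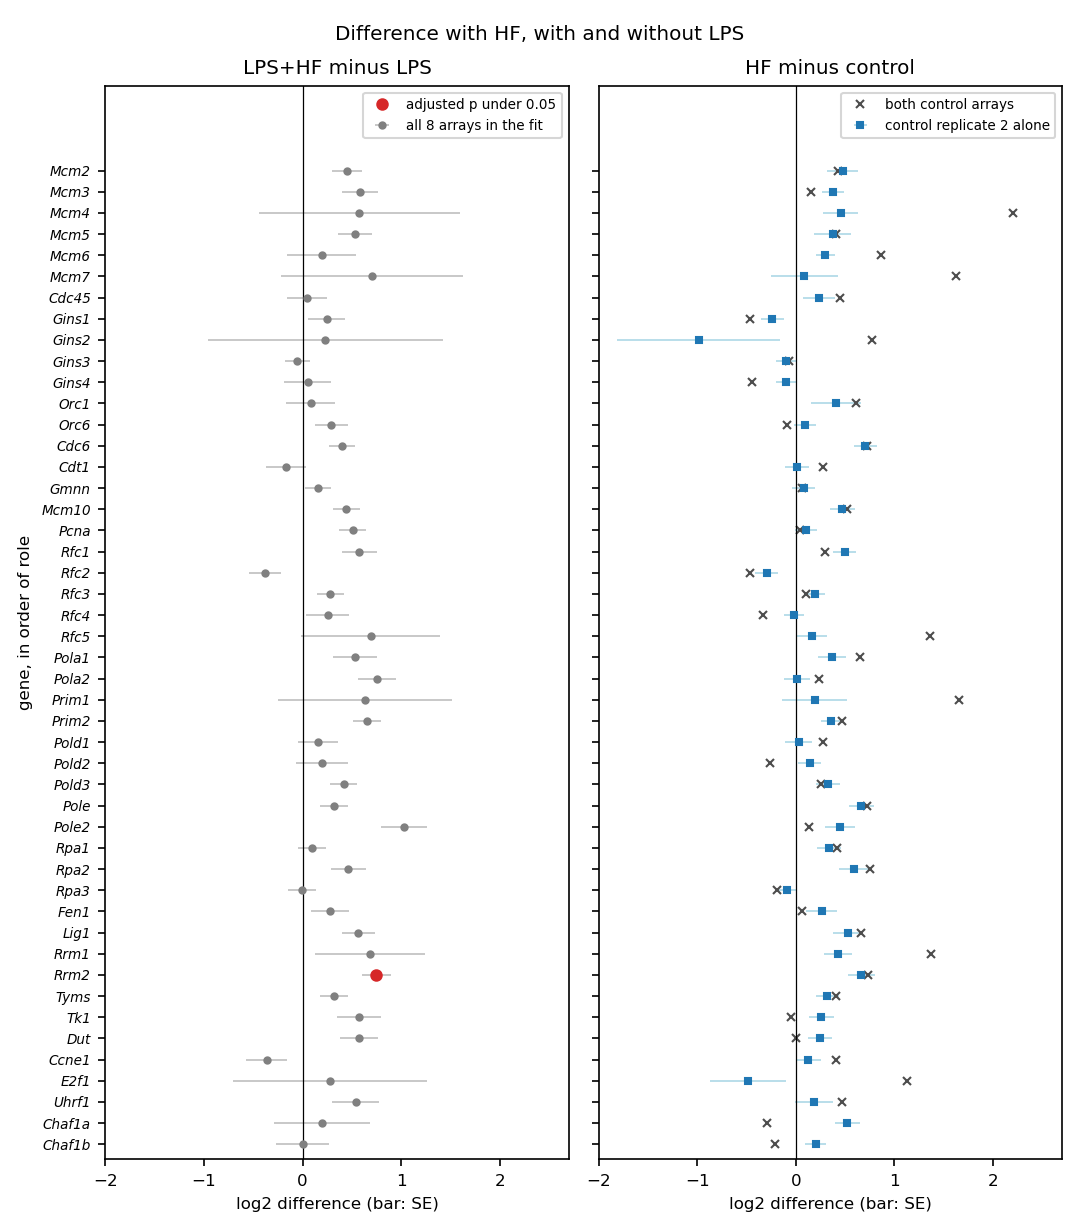
Log2 difference of each replication gene between LPS+HF and LPS (left, dots with SE from the fit of all 8 arrays) and between HF and control (right, squares with SE against control replicate 2 alone and crosses against both control arrays). On the left 42 of 47 genes lie above 0 and Rrm2 is the gene that passed. On the right Mcm4, Mcm7, Gins2, Prim1, Rfc5, Rrm1 and E2f1 move far between the crosses and the squares.

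All 5 genes of nucleotide supply had higher signals on both LPS+HF arrays than on both LPS arrays. Rrm2, the small subunit of ribonucleotide reductase, which makes deoxyribonucleotides, read 4.68 and 4.80 on the LPS arrays and 5.37 and 5.61 on the LPS+HF arrays. The HF arrays read 5.31 and 5.35 and the control arrays 4.53 and 4.67, so all 4 arrays with HF lay above all 4 without. Rrm2 rose 1.68-fold from LPS to LPS+HF (log2 0.75 ± 0.15 SE, adjusted p = 0.0434 in limma). Without any single LPS, HF or LPS+HF array it did not pass (adjusted p = 0.105 to 0.291), while without either control array it did (adjusted p = 0.012). It did not pass after the spatial correction (adjusted p = 0.0612).

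Rrm1, the large subunit of the same enzyme, read 3.92 and 3.98 on the LPS arrays and 4.57 and 4.70 on the LPS+HF arrays. These groups did not overlap, and the HF arrays, at 4.46 and 4.70, overlapped with the LPS+HF arrays. The log2 difference of LPS+HF from LPS was 0.68 with an SE of 0.56 in the fit of all arrays (adjusted p = 0.527) and of 0.12 without control replicate 1 (adjusted p = 0.0157). On control replicate 1 Rrm1 read 2.27, against 4.16 on control replicate 2.

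Tk1, the thymidine kinase of the salvage pathway, read 3.77 and 3.66 with LPS and 4.22 and 4.36 with LPS+HF. Its log2 difference was 0.58 ± 0.22 SE (adjusted p = 0.19). Dut, which removes dUTP, read 3.56 and 3.63 with LPS and 4.07 and 4.26 with LPS+HF, a log2 difference of 0.57 ± 0.19 (adjusted p = 0.144). For both genes the LPS arrays were the lowest of all 8 and the groups did not overlap. Tyms, thymidylate synthase, read -1.25 and -1.23 with LPS and -0.96 and -0.89 with LPS+HF, a log2 difference of 0.32 ± 0.14 (adjusted p = 0.238). Its HF arrays, at -0.51 and -0.67, were the highest of the 8, above both LPS+HF arrays.

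All 9 genes of the polymerases and primase also had non-overlapping LPS+HF and LPS arrays, with LPS+HF higher, and a median log2 difference of 0.53. None of them passed in the fit of all arrays. In limma 4 had an unadjusted p under 0.05, as had 5366 of all 22460 genes. Pole2, the second subunit of the leading strand polymerase epsilon, read 1.32 and 1.42 on the LPS arrays and 2.31 and 2.50 on the LPS+HF arrays. The LPS arrays were the lowest of the 8. The log2 difference was 1.03 ± 0.23 SE, or 2.05-fold (adjusted p = 0.0586), the highest of the 47 genes. It passed without control replicate 1 (adjusted p = 0.00756).

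Pola1, the catalytic subunit of polymerase alpha, which extends the primers, read 2.76 and 2.82 with LPS and 3.26 and 3.39 with LPS+HF. The HF arrays were higher again, at 3.48 and 3.70. The log2 difference between LPS+HF and LPS was 0.53 ± 0.22 SE (adjusted p = 0.215). Pola2, the regulatory subunit of the same polymerase, read -0.99 on both LPS arrays and -0.31 and -0.16 on the LPS+HF arrays, a log2 difference of 0.76 ± 0.19 (adjusted p = 0.0751). Prim2, the large primase subunit, differed by 0.66 ± 0.14 (adjusted p = 0.052), and its LPS arrays, at 2.35 and 2.32, were the lowest of the 8. Pole, the catalytic subunit of polymerase epsilon, read 3.61 and 3.64 with LPS and 3.93 and 3.95 with LPS+HF. Prim1 and the delta subunits Pold1, Pold2 and Pold3 had log2 differences of 0.63, 0.16, 0.20 and 0.42.

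The helicase genes had a median log2 difference of 0.24, and 8 of the 11 had non-overlapping arrays with LPS+HF higher; none passed. The 6 MCM genes, whose products form the ring of the helicase, lay between 0.19 for Mcm6 and 0.71 for Mcm7. Mcm2 read 3.10 and 3.02 with LPS and 3.39 and 3.64 with LPS+HF, a log2 difference of 0.45 ± 0.16 SE (adjusted p = 0.151). Mcm5 read 4.94 and 4.79 with LPS and 5.25 and 5.55 with LPS+HF, a log2 difference of 0.53 ± 0.17 (adjusted p = 0.13). In both genes the 4 arrays with HF lay above the 4 without. Mcm3 differed by 0.59 ± 0.18, with the LPS arrays, at 5.33 and 5.39, the lowest of the 8.

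Cdc45 and the 4 GINS subunits activate the MCM ring. Cdc45 read 1.21 and 0.99 with LPS and 1.03 and 1.26 with LPS+HF, which overlap. Gins1, Gins2, Gins3 and Gins4 had log2 differences of 0.24, 0.23, -0.05 and 0.05. Gins2 read 1.19 on HF replicate 1 and 3.33 on HF replicate 2, so its HF mean rests on arrays that disagree.

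Among the 6 licensing genes, 4 had non-overlapping arrays with LPS+HF higher, 1 had them lower, and none passed. Cdc6, the ATPase that helps load MCM, read 0.63 and 0.62 with LPS and 0.94 and 1.099 with LPS+HF, a log2 difference of 0.40 ± 0.13 SE (adjusted p = 0.142). Cdt1, its partner in loading, had a difference of the opposite sign, at 6.87 and 6.97 with LPS and 6.75 and 6.77 with LPS+HF. The log2 difference of Cdt1 was -0.16 ± 0.20 (adjusted p = 0.693), and its lowest signal was on control replicate 1, at 6.09. Gmnn, the inhibitor of Cdt1, read 2.94 and 3.06 with LPS and 3.12 and 3.20 with LPS+HF, a log2 difference of 0.16 ± 0.13 (adjusted p = 0.526). Mcm10, which helps start unwinding, differed by 0.45 ± 0.14 (adjusted p = 0.126).

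Of the clamp and its loader, 5 of 6 genes had non-overlapping arrays with LPS+HF higher, and Rfc2 had them lower. Pcna, the clamp, read 6.48 and 6.62 on the LPS arrays, the lowest of the 8, and 7.04 and 7.08 on the LPS+HF arrays. The control arrays, at 7.16 and 7.04, and the HF arrays, at 7.12 and 7.16, lay close to the LPS+HF arrays. The log2 difference between LPS+HF and LPS was 0.51 ± 0.13 SE (adjusted p = 0.0836).

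The subunits of replication factor C had differences of both signs. Rfc1, the large subunit, differed by 0.58 ± 0.18 SE (adjusted p = 0.117). Rfc3 read 0.84 and 0.91 with LPS and 1.11 and 1.20 with LPS+HF, a log2 difference of 0.28 ± 0.14 (adjusted p = 0.277). Rfc2 read 4.66 and 4.49 with LPS and 4.19 and 4.21 with LPS+HF, a log2 difference of -0.38 ± 0.16 (adjusted p = 0.234), or adjusted p = 0.0405 without control replicate 1. All 4 arrays with HF read below all 4 without it for Rfc2.

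Of the 5 genes of single-strand binding and the lagging strand, Rpa2, Fen1 and Lig1 had non-overlapping arrays and log2 differences of 0.47, 0.28 and 0.57. Rpa1 and Rpa3, the other subunits of the complex that coats single-stranded DNA, had 0.09 and -0.01. Lig1, which joins Okazaki fragments after Fen1 trims them, read 4.55 and 4.57 with LPS and 5.03 and 5.22 with LPS+HF (adjusted p = 0.109).

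The genes that drive S phase entry had differences of both signs. Ccne1, cyclin E1, which activates Cdk2, read 4.44 and 4.32 on the LPS arrays, the highest of the 8, and 3.95 and 4.08 on the LPS+HF arrays. Its log2 difference was -0.36 ± 0.21 SE (adjusted p = 0.361, or 0.0532 without control replicate 1). E2f1 read 3.63 and 3.42 with LPS and 3.68 and 3.94 with LPS+HF, a log2 difference of 0.28 ± 0.98 (adjusted p = 0.903). E2f1 read 0.40 on control replicate 1 and 3.64 on control replicate 2. Of the chromatin genes, Uhrf1, which carries DNA methylation through replication, read 4.26 and 4.30 with LPS and 4.62 and 5.03 with LPS+HF, a log2 difference of 0.54 ± 0.24 (adjusted p = 0.236). Chaf1b, a subunit of the chromatin assembly factor, read 5.23 and 5.25 with LPS and 5.29 and 5.20 with LPS+HF, which overlap, a log2 difference of 0.00 ± 0.27 (adjusted p = 0.998). Chaf1a, the large subunit, had a log2 difference of 0.20.

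**Figure D3:**
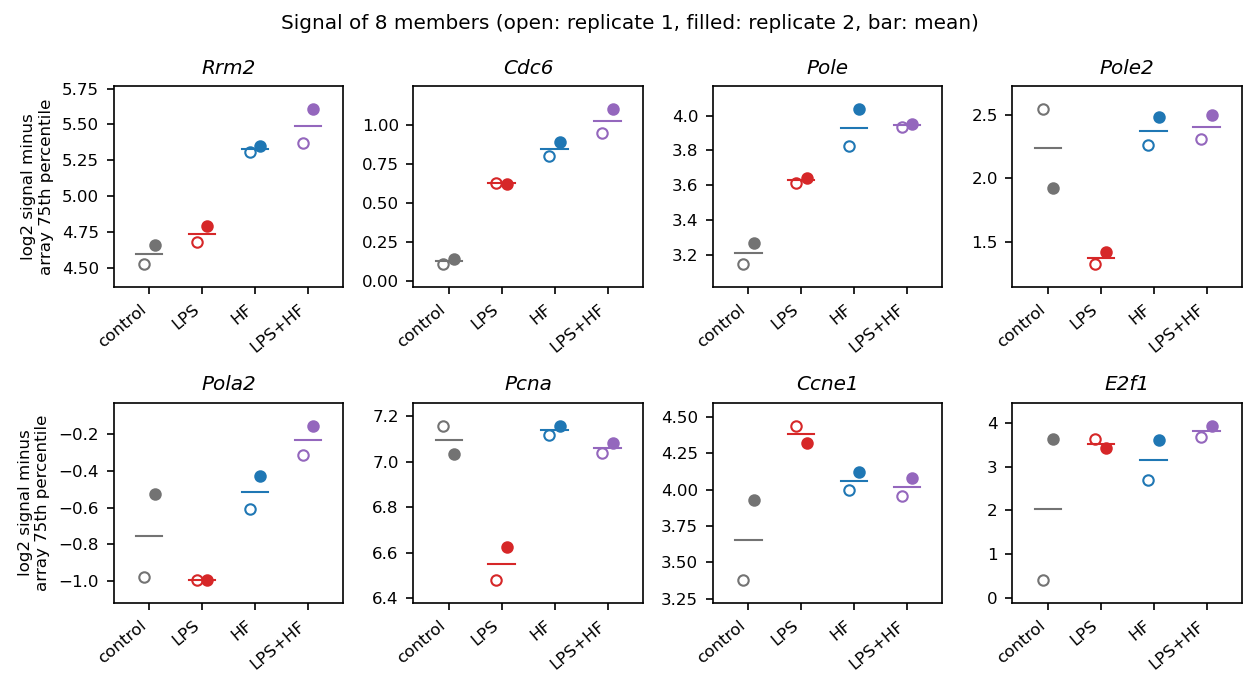
Log2 signal minus the array's 75th percentile of Rrm2, Cdc6, Pole, Pole2, Pola2, Pcna, Ccne1 and E2f1 on each array (open circles replicate 1, filled circles replicate 2, bars group means of 2 arrays; each panel has its own scale). Rrm2 is high on the 4 arrays with HF, Pole2 and Pcna are low on the 2 LPS arrays, and Ccne1 is highest there.

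Without LPS, the effect of HF was read from HF against control. Of the 47 genes, 35 had a log2 difference above 0 (44.6% of all genes), and in 23 both HF arrays lay above both control arrays (20.5% of all genes). The median was 0.40, and -0.07 over all genes. No replication gene passed in limma, where 0.882% of all genes passed. At an unadjusted p under 0.05 in limma were 15 of the 47 genes and 4425 of all 22460 genes. Against control replicate 2 alone, 39 of 47 differences were above 0 (47.9% of all genes) and the median was 0.24 (-0.02 over all genes). Again 0 of the 47 genes passed, where 2.28% of all genes passed. In that fit 19 of the 47 genes had an unadjusted p under 0.05 in limma, as had 5885 of all 22460 genes.

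The lowest adjusted p values were those of Cdc6, Pole and Rrm2. Cdc6 read 0.11 and 0.14 on the control arrays and 0.80 and 0.89 on the HF arrays, a log2 difference of 0.72 ± 0.13 SE (adjusted p = 0.085). Pole read 3.15 and 3.27 in control and 3.82 and 4.04 with HF, a log2 difference of 0.72 ± 0.14 (adjusted p = 0.0954). Rrm2 differed by 0.73 ± 0.15 (adjusted p = 0.103). Against control replicate 2 alone these 3 differences were 0.71, 0.66 and 0.66. After the spatial correction 2 genes passed as rises, Cdc6 (adjusted p = 0.0259) and Pole (adjusted p = 0.0347), where 4.92% of all genes passed.

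The largest values in this comparison rested on control replicate 1. Mcm4 differed by 2.20 with both control arrays and by 0.45 with control replicate 2 alone. Prim1 differed by 1.65 and 0.19, Mcm7 by 1.62 and 0.09, and Rfc5 by 1.36 and 0.16. E2f1 turned from 1.13 to -0.49, and Gins2 from 0.77 to -0.99. The values against control replicate 2 alone include HF replicate 1, the other array marked for evaluation. For Mcm7, Prim1 and Gins2, HF replicate 1 read below control replicate 2 and HF replicate 2 above it. E2f1 read 2.69 on HF replicate 1, 3.61 on HF replicate 2 and 3.64 on control replicate 2. For Mcm4 and Rfc5 both HF arrays read above control replicate 2. The second values of Mcm7, Prim1, E2f1 and Gins2 therefore also rest on HF replicate 1. Pcna differed by 0.04 ± 0.13 SE and by 0.10 with control replicate 2 alone, and its HF and control arrays overlap.

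The comparisons of HF without LPS and with LPS share no array, so their signs can be set side by side. In 33 of 47 genes (70.2%) both log2 differences were above 0, as in 26.8% of all genes, in 3 both were below 0 and in 11 they were opposite. With control replicate 2 alone both were above 0 in 37 genes (78.7%), and in 29.5% of all genes. In 27 of 47 genes (57.4%) all 4 arrays with HF lay above the 3 arrays without HF other than control replicate 1, which 13.4% of all genes did. Over all 8 arrays the 4 with HF lay above the 4 without in 16 genes, and in 7.74% of all genes. Against the 3 arrays without HF other than control replicate 1, Rfc2 was the gene with all 4 below, as in 14.7% of all genes. The interaction, which tests whether the HF difference is itself different with LPS, passed for 0 of 47 genes in limma, and for 0.0534% of all genes. At an unadjusted p under 0.05 in limma were 4 of the 47 genes and 2595 of all 22460 genes. The highest positive interaction was that of Pole2, at 0.90 ± 0.33 SE (adjusted p = 0.395 in limma). With control replicate 2 alone it was 0.59, below those of Gins2 (1.22), E2f1 (0.77), Pola2 (0.75) and Mcm7 (0.62). The values of Gins2, E2f1 and Mcm7 include the low signals of HF replicate 1. Interactions above 0 numbered 26 of 47 with both control arrays (51.6% of all genes) and 33 with control replicate 2 alone (49.3%).

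The signs of the LPS differences depended on the control array used. In LPS against both control arrays, 23 of 47 log2 differences were above 0 (44.2% of all genes), the median was -0.06 (-0.08 over all genes), and 13 genes had non-overlapping arrays with LPS higher and 20 with LPS lower (24.1% and 33.1% of all genes). Against control replicate 2 alone, 16 of 47 were above 0 (44.5% of all genes), with a median of -0.11 (-0.06 over all genes). With both control arrays no replication gene passed in limma, where 11.1% of all genes passed. At an unadjusted p under 0.05 in limma were 15 of the 47 genes and 6651 of all 22460 genes. The median followed the scaling: it was 0.15 with quantile normalization and 0.29 with median scaling, where the median over all genes was 0.04 and 0.27.

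Pole2 had the most negative difference from control, at -0.86 ± 0.23 SE (adjusted p = 0.0695), with control arrays at 2.54 and 1.92 and LPS arrays at 1.32 and 1.42. Tk1 differed by -0.74 ± 0.22 (adjusted p = 0.0916), Dut by -0.65 ± 0.19 (adjusted p = 0.0886) and Pcna by -0.55 ± 0.13 (adjusted p = 0.0549). Ccne1 differed by 0.73 ± 0.21 (adjusted p = 0.082), Orc1, the ATPase of the origin recognition complex, by 0.81 ± 0.25 (adjusted p = 0.0914) and Cdc6 by 0.50 ± 0.13 (adjusted p = 0.0667). Cdc45 differed by 0.76 ± 0.20 (adjusted p = 0.0639) and Gins1 by -0.65 ± 0.19 (adjusted p = 0.0802). These 9 genes had the lowest adjusted p values, and the groups did not overlap in any of them. Against control replicate 2 alone the differences were smaller, at -0.55 for Pole2, -0.43 for Tk1, -0.41 for Dut and -0.42 for Gins1. They were 0.45 for Ccne1, 0.55 for Cdc45 and 0.61 for Orc1. Against control replicate 2 alone 3 genes passed: Pcna (log2 -0.49, adjusted p = 0.0416) and Prim2 (log2 -0.47, adjusted p = 0.0346) fell and Cdc6 rose (log2 0.48, adjusted p = 0.0471), where 20.3% of all genes passed.

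With both agents, 3 genes rose against control and none fell. Of all genes, 5.09% passed, 1.92% as rises. Cdc6 rose 1.86-fold (log2 0.89 ± 0.13 SE, adjusted p = 0.0247), Rrm2 1.85-fold (log2 0.89 ± 0.15, adjusted p = 0.0349) and Pole 1.67-fold (log2 0.74 ± 0.14, adjusted p = 0.0454). For each, both LPS+HF arrays lay above both control arrays, and against control replicate 2 alone all 3 passed (adjusted p = 0.0206, 0.0308 and 0.036), as did Mcm10 and Rpa2, where 14.0% of all genes passed. Without any single LPS, HF or LPS+HF array none of the 3 passed in limma (adjusted p = 0.0709 to 0.244), with 8 to 13 of the 47 genes at an unadjusted p under 0.05. The median log2 difference was 0.36 (-0.13 over all genes), or 0.27 against control replicate 2 alone. The largest values, 2.35 for Mcm4, 2.08 for Mcm7 and 2.05 for Prim1, became 0.60, 0.55 and 0.59 without control replicate 1.

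The effect of LPS in the presence of HF was read from LPS+HF against HF. The median log2 difference between LPS+HF and HF was 0.04 (-0.08 over all genes). In 9 genes both LPS+HF arrays were above both HF arrays and in 10 they were below (18.2% and 35.2% of all genes). No replication gene passed in limma, where 1.28% of all genes passed. None had an unadjusted p under 0.05 in limma, which 2102 of all 22460 genes had. Tyms had the most negative log2 difference, at -0.33 ± 0.14 SE (adjusted p = 0.565). The 95% interval of Rrm2 ran from -0.21 to 0.52.

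The 6 genes with 2 probes gave a check within the arrays. For LPS+HF against LPS, the second probe read 0.72 for Cdc6 (0.40 on the probe used), 0.33 for Rfc4 (0.25), -0.50 for Ccne1 (-0.36), 0.40 for Uhrf1 (0.54), -0.05 for Chaf1b (0.00) and 0.15 for Pole (0.32). The second probe of Pole was above background on 3 arrays, and against control it read -2.05 where the probe used read 0.74. Against control the probes of Rfc4 and Chaf1b also disagreed in sign, at 1.28 against -0.38 and 1.47 against -0.05 for LPS+HF. Both of these second probes read far lower on control replicate 1 than on control replicate 2.

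Other genes of replication, from a list of 47 that are not among the 48, had a median log2 difference of 0.41 between LPS+HF and LPS, with 40 of 47 above 0 (43.8% of all genes). Of them 4 rose and 1 fell, where 6.25% of all genes passed and 2.99% rose. Dbf4, the activator of the origin-firing kinase Cdc7, rose 1.78-fold, Chtf18, of an alternative clamp loader, 1.67-fold, Topbp1, which helps fire origins, 1.64-fold, and Pole3, a small polymerase epsilon subunit, 1.61-fold. Recql4, a helicase needed to start replication, fell 1.68-fold. Of 27 regulators of G1 and S phase, 4 rose and none fell, against the same shares of all genes: Btg2, an antiproliferative gene, 6.89-fold, Ccna2, cyclin A2, 2.55-fold, E2f8, a repressor of E2F targets, 1.91-fold, and Tfdp1, the partner of the E2F factors, 1.64-fold. In LPS against control, Brca1 rose 2.82-fold and Recql4 2.41-fold, while Dscc1, of an alternative clamp loader, fell 3.23-fold and Rnaseh2c, of ribonuclease H2, 2.01-fold. Each of these calls has an adjusted p under 0.05 in limma, from the fit of all 8 arrays. The 4 calls against control also passed against control replicate 2 alone, at 2.33-fold for Brca1, 2.30-fold for Recql4, 2.18-fold for Dscc1 and 1.69-fold for Rnaseh2c. They ended without LPS replicate 1 or 2, and those of Dscc1 and Rnaseh2c without any single HF or LPS+HF array too. The calls in LPS+HF minus LPS ended without LPS replicate 1 or 2, where no gene of the array passed (2981 and 3115 at an unadjusted p under 0.05). Apart from Btg2, they also ended without any single HF or LPS+HF array. Without control replicate 1, 23 of the 47 other replication genes rose and 1 fell, and 14 of the 27 regulators rose, where 29.2% of all genes passed.

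**Figure D4:**
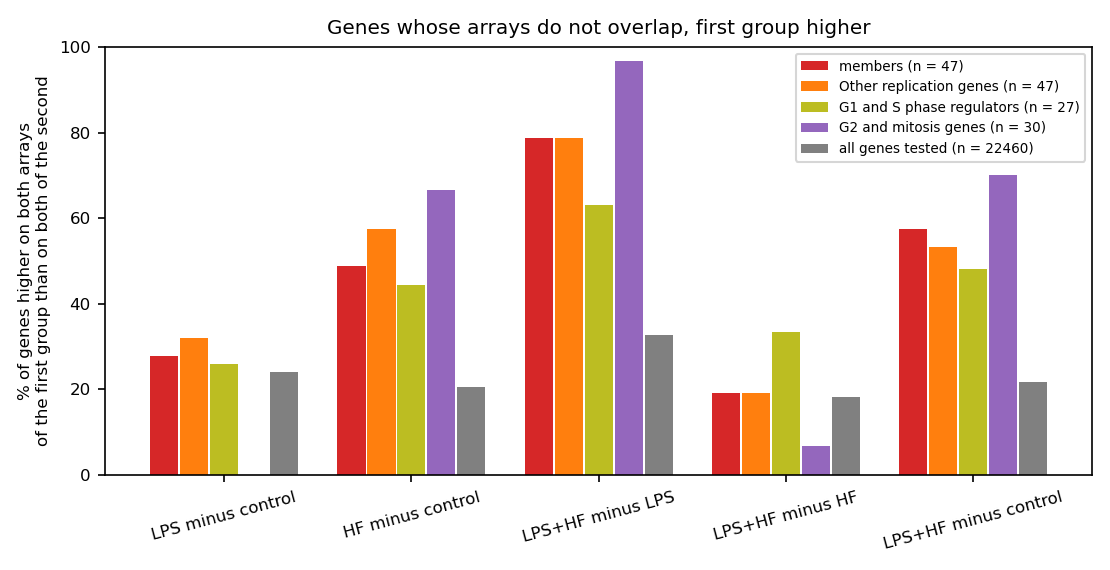
Percent of genes in each list for which both arrays of the first group lay above both arrays of the second, in 5 comparisons of 2 arrays against 2. In LPS+HF minus LPS the share is 78.7% of the 47 replication genes, 96.7% of the 30 genes of G2 and mitosis and 32.7% of all 22460 genes.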

How the data were processed

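Messenger RNA of BV-2 cells was measured on 8 single-colour arrays, 2 in each of 4 groups. Per the file headers, spot intensity values came from Agilent Feature Extraction 11.5.1.1, with background subtracted and trends within an array corrected. The deposited matrix holds log2 values that the authors derived from these signals. Over 55630 probes, subtracting the 75th percentile and each probe's median gave the same values, with an absolute difference of 0.00587 at the 95th percentile. This matrix served as an alternative.

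Processed signals were converted to log2, repeated spots averaged without those the scanner software marked as faulty, and the array's 75th percentile subtracted. A probe was kept if some group had both arrays well above background (30345 of 55681; 53 of the 54 probes of replication genes). RefSeq transcript names gave 28026 probes (50.3%) a symbol; others kept the file's name. The kept probe with the highest mean stood for a gene. All per-sample columns of the tables were mapped to a sample.

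Group means were fitted with limma 3.58.1 in R 4.3.3 over 8 arrays (4 residual and 2.04 prior degrees of freedom), with 6 comparisons and Benjamini-Hochberg adjustment over 22460 genes. The script was tested on simulated data. Percentages of all genes come from the same fit. Replication genes that passed, and 19 fixed ones, are given in full; other genes are up to 4 passed genes per list and comparison, largest first. The genes and lists were chosen with earlier results of these data known.

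Alternatives were normexp (offset 50, on median signals, in place of the planned mean signals) with quantile normalization, quantile normalization, median scaling, the authors' matrix, no filter, a stricter filter (above background on 8 arrays), averaging a gene's probes, a trended and robust variance, a replicate block, fitting the compared arrays alone, a spatial correction, and leaving out arrays. The spatial correction removed local deviations (windows of 30 by 15 spots) and masked any spot dimmed more than 4-fold; that covered Mcm4, Mcm7, Gins2, Prim1, Rrm1, E2f1 and Ccne2 on control replicate 1. Where a group kept 1 array, it was assumed to vary like the others. Deviations of same-numbered arrays correlated between -0.09 and 0.27 over pairs of groups. Control with HF, at 0.27, was above the set threshold of 0.1, and the other pairs were below it. Replicate 1 of control and of HF were the arrays marked for evaluation. The labels name no pairs, and the numbers were not taken as pairs. Start windows came from RefSeq (GRCm38.p6). Python 3.11.15 with pandas 2.3.3, numpy 2.4.6 and matplotlib 3.10.9 handled tables and plots.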

Additional observations from a re-analysis of the deposited data

How the results depend on the processing

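Without single arrays, the number of replication genes that passed ran from 0 to 32 in LPS minus control, from 0 to 30 in HF minus control, from 0 to 19 in LPS+HF minus LPS, from 0 to 35 in LPS+HF minus control and from 0 to 21 in the interaction. The counts of 32, 30, 35 and 21 came from leaving out control replicate 2, which leaves the uneven control replicate 1 alone (52.7%, 45.3%, 50.6% and 35.3% of all genes passed), and 19 came from leaving out either control array. The medians ran from -0.11 to 0.054, from 0.24 to 0.49, from 0.31 to 0.44, from 0.27 to 0.51 and from -0.10 to 0.14 in the same order, and from -0.04 to 0.12 in LPS+HF minus HF. In LPS minus control, 3 genes passed with probes above background on all arrays, with the mean over probes and with a trended and robust variance, 4 after the spatial correction and 1 without both arrays marked for evaluation (22.5% and 21.6% of all genes). In HF minus control, 2 passed after the spatial correction. In LPS+HF minus LPS the count of 1 became 0 with normexp and quantile normalization, quantile normalization alone, median scaling and no filter, with 7, 16, 9 and 14 at an unadjusted p under 0.05 in limma. It became 3 with probes above background on all arrays and with a trended variance, 2 with the mean over probes, 9 after the spatial correction (19.2% of all genes), and 21 with only the arrays compared or without both marked arrays (32.9% of all genes in each). In LPS+HF minus control the count of 3 became 0 with normexp, median scaling, no filter and only the arrays compared (5, 22, 13 and 9 at an unadjusted p under 0.05), 6 with probes above background on all arrays and a trended variance, 7 after the spatial correction and 8 without both marked arrays (18.0% and 16.1% of all genes). With the replicate block, whose numbers were not taken as pairs in the main fit, 0 genes passed in LPS+HF minus LPS and 0 in LPS+HF minus control. In limma 17 and 19 had an unadjusted p under 0.05. Median scaling moved the median to 0.29 in LPS minus control (0.27 over all genes), 0.79 in HF minus control (0.32), 0.47 in LPS+HF minus LPS (0.08), 0.15 in LPS+HF minus HF (0.03), 0.86 in LPS+HF minus control (0.36) and -0.20 in the interaction (-0.21). Quantile normalization moved LPS minus control to 0.15 and the interaction to -0.059. Normexp moved HF minus control to 0.20 and LPS+HF minus control to 0.25. The spatial correction moved HF minus control to 0.30, and leaving out both marked arrays moved it to 0.28 and LPS+HF minus control to 0.27. Chaf1b turned negative in LPS+HF minus LPS with normexp (-0.071), quantile normalization (-0.072), the mean over probes (-0.024), the spatial correction (-0.14), and without LPS replicate 1 or LPS+HF replicate 1, its values without single arrays running from -0.041 to 0.045. Pole in LPS+HF minus control was -0.66 with the mean over its probes, of which the second was mostly below background. The cause of the other changes was not tested. A count of passed genes that is given, here or above, without the share of all genes cannot be set against the background. Group sizes of 2 and signal over background limit what differences of this size can show.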

Other observations

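Genes of G2 and mitosis, from a list of 30 in which all were tested, had a median log2 difference of 1.01 between LPS+HF and LPS, where the replication genes had 0.32. All 30 differences were above 0 (43.8% of all genes), in 29 both LPS+HF arrays lay above both LPS arrays (32.7% of all genes), and 11 rose (2.99% of all genes). The 4 largest rises, from 2.72-fold to 3.33-fold, were those of the cyclin Ccnb2, the cytokinesis kinesin Kif20a, and Cdc20 and Ube2c, which act with the anaphase-promoting complex. The 11 calls ended without any single LPS or LPS+HF array. Those of Ccnb2, Cdc25c, Cenpe, Kif11 and Nusap1 also ended without any single HF array. In LPS minus control 5 of the 30 fell, as did 1424 of all 22460 genes, and against control replicate 2 alone 13 fell, as did 2592 of all genes. With both control arrays the 4 largest falls were 2.21-fold for Kif20a, 2.15-fold for Cdc20, 2.11-fold for Ube2c and 1.92-fold for Plk1, a mitotic kinase. The calls in LPS minus control ended without LPS replicate 1 or 2, those of Plk1 and Kif11 also without any single HF or LPS+HF array. The call of Kif11 also ended against control replicate 2 alone. In HF minus control none passed in limma with both control arrays. At an unadjusted p under 0.05 in limma were 13 of the 30 genes and 4425 of all 22460 genes. All 30 differences were above 0 (44.6% of all genes), with a median of 0.56. Against control replicate 2 alone 29 were above 0 (47.9% of all genes) and 3 rose, Kif23 1.80-fold, Top2a 1.79-fold and Mki67 1.72-fold, where 2.28% of all genes passed. The interaction of LPS and HF passed for none of the 30 in limma. At an unadjusted p under 0.05 were 8 of the 30 genes and 2595 of all 22460 genes. Slide row and HF, and slide column and LPS, cannot be told apart for these genes either.

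Of the regulators of G1 and S phase, Myc, a driver of cell growth, rose 4.52-fold in LPS minus control and 12.8-fold in LPS+HF minus HF. Cdkn1c and Cdkn1a, inhibitors of cyclin-dependent kinases, fell 3.21-fold and 1.80-fold in LPS minus control. These 3 calls against control also passed against control replicate 2 alone, and ended without LPS replicate 1 or 2, that of Cdkn1a also without any single HF or LPS+HF array. Myc in LPS+HF minus HF passed without each of the 8 arrays in turn. Btg2 rose 3.13-fold in LPS+HF minus HF, a call that ended without either LPS array, either HF array or LPS+HF replicate 1 (adjusted p in limma up to 0.140). In HF minus control its 2.60-fold difference passed with both control arrays (adjusted p in limma = 0.0471) and not against control replicate 2 alone, at 2.56-fold (adjusted p = 0.0565), nor without any single LPS, HF or LPS+HF array (up to 0.245).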
